A study of Zea mays with 12 samples.

Results

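Bract primordia of the maize *tsh4* single mutant were compared with bract primordia of the inbred B73. The comparison uses 6 of the 12 RNA-seq samples of the series, chosen by genotype label, with 3 biological replicates of *tsh4* and 3 of B73, and all 20168 genes in the deposited table. B73 is the wild type, and the mutant carries *tsh4-rm*, in which a *Mutator* transposon sits in the first intron of *tsh4*. This allele came from a stock with active *Mutator* elements and was crossed repeatedly to B73 before the experiment, a background in which its phenotype is milder. Plants of both genotypes were untreated and shared 1 greenhouse regime with long days. Ear bract primordia were cut by laser from fixed, paraffin-embedded sections of the uppermost nodes, where the bract ridge was visible and the adjacent meristem was not, and their RNA was amplified in vitro before sequencing.

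In grass inflorescences, the leaf that subtends each branch or spikelet, called the bract, is initiated and then suppressed. *tasselsheath4* (*tsh4*) encodes an SBP-box transcription factor, a plant-specific class of DNA-binding proteins of which many are targets of miR156, and *tasselsheath1* (*tsh1*) encodes a GATA zinc-finger transcription factor. Bracts grow out in mutants of either gene. The comparison asks which transcripts of the early bract depend on *tsh4*.

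The libraries held 50762256 to 110703826 reads on genes, with the highest number in replicate 1 of both genotypes. Values are normalized CPM (counts relative to the size of the library, adjusted by the trimmed mean of M values) and are not scaled to gene length. Pearson's r of log2(CPM + 0.1) across genes, which are not independent replicates, was 0.984 to 0.991 in the 6 pairs of libraries of the same genotype and 0.967 to 0.976 in the 9 pairs of different genotypes. Fold changes are given as log2(CPM + 0.1) in *tsh4* minus B73 and understate the change of weakly expressed genes. Differentially expressed genes (DEGs) had a limma p of at most 0.05 after adjustment over all genes, and changed by at least 1 on the log2 scale, which is 2-fold or more. Unless an exception is given, each DEG named below kept its call when any 1 of the 6 libraries was left out.

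The targeted gene was low in every library labelled *tsh4*. *tsh4* (GRMZM2G307588) was at 1553, 1359 and 1059 CPM in B73 and at 65.5, 81.1 and 74.5 CPM in *tsh4*. The mutant mean was 5.57% of the B73 mean, and the log2 fold change was −4.15 (SE 0.23, adjusted p = 1.3e-08). A 2-sided exact permutation test of 3 against 3 libraries gave p = 0.1, the smallest value this design allows. Transcripts of the gene were thus still counted in all mutant libraries.

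Of the 20168 genes, 768 (3.81%) were DEGs, with 411 (2.04%) up-regulated and 357 (1.77%) down-regulated in *tsh4*. The libraries of the genotypes did not overlap for 766 of these DEGs, compared with 23.6% of all genes. The exceptions were *ZmLOG7* and *opr5*, both down-regulated, and *opr5* (log2 fold change −1.56, adjusted p = 0.042) lost its call without replicate 1 or 3 of either genotype (adjusted p from 0.128 to 0.211). Changes of 4-fold or more were found for 118 up-regulated and 108 down-regulated genes, and changes of 8-fold or more for 29 in either direction. The median log2 fold change of all genes was −0.01. Over the 6 libraries, 237 DEGs averaged less than 1 CPM, 531 averaged at least 1 CPM and 25 of these averaged at least 100 CPM. edgeR's quasi-likelihood test on the reads recovered from the CPM called 771 genes (3.82%), which include 733 of the 768 in the same direction.

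**Figure D1:**
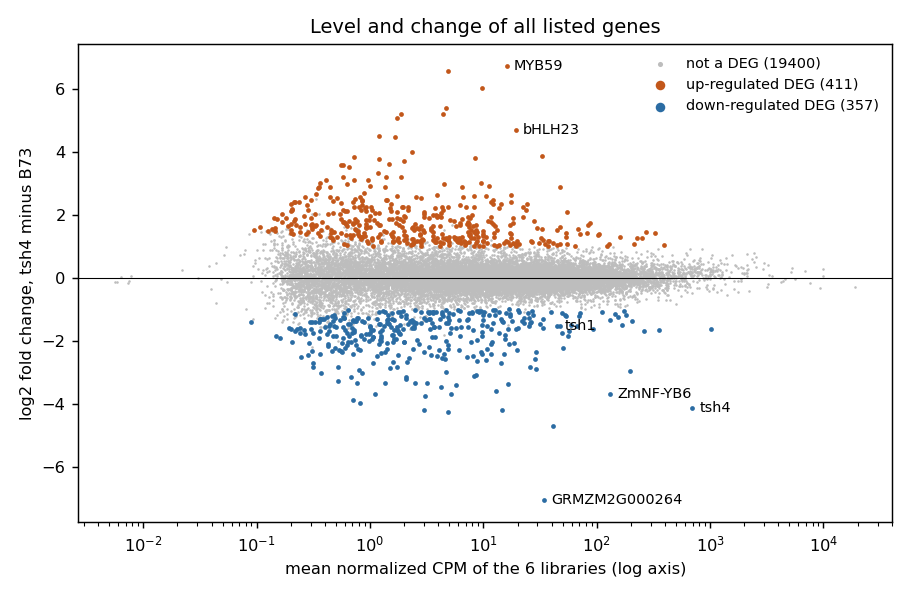
Each point is 1 of the 20168 listed genes, with its mean normalized CPM over the 6 libraries on a log axis and its log2 fold change (*tsh4* minus B73). The 411 up-regulated and 357 down-regulated DEGs lie on either side of 0, and *tsh4* is the most strongly reduced gene among those with a mean above 100 CPM.

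Among the 20 listed SBP-box genes, 2 were down-regulated and 1 was up-regulated, beside 3.81% called among all genes. The median log2 fold change of the family was 0.11. Apart from *tsh4*, *sbp2* fell from 2.62, 1.27 and 2.16 CPM in B73 to 0.396, 0.131 and 0.312 CPM in *tsh4* (log2 fold change −2.49, SE 0.39, adjusted p = 0.00076). *teosinte glume architecture1* (*tga1*), which acts in development of the case around the kernel, rose from 3.22, 1.96 and 3.32 CPM to 13.2, 11 and 16.5 CPM (log2 fold change 2.24, SE 0.31, adjusted p = 0.00027). In neither gene did the genotypes overlap. The *tsh4* paralogs *unbranched2* (*ub2*) and *unbranched3* (*ub3*) were not DEGs. *ub2* was at 68.5, 45.4 and 60.4 CPM in B73 and 56.5, 80.7 and 105 CPM in *tsh4* (adjusted p = 0.53). *ub3* was at 69.7, 46.3 and 38.8 CPM in B73 and 61.4, 87.3 and 90.5 CPM in *tsh4* (adjusted p = 0.31). Both means were higher in the mutant, but the libraries overlapped.

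Several regulators of organ boundaries and of the ligule, the fringe at the border of leaf sheath and blade, were reduced together with *tsh4*. The study names *lg2*, *lrs1*, *ZmCUC3*, *baf1*, *ba1*, *ZmLOF2* and *ZmATH1* from these samples. It also reports from them that *tsh1* was lower in *tsh4* mutants. The direction of all these genes is therefore not independent evidence. *tsh1* (GRMZM2G325850) was at 89.6, 60.7 and 52.1 CPM in B73 and 25.3, 18.7 and 23.6 CPM in *tsh4*. Its log2 fold change was −1.55 (SE 0.27, adjusted p = 0.0017), with 33.4% of the B73 mean left and no overlap. The exact permutation test again gave its minimum of p = 0.1. *liguleless2* (*lg2*), a bZIP transcription factor, fell from 92.8, 68.7 and 67.5 CPM to 28.9, 16.7 and 22.9 CPM (log2 fold change −1.75, SE 0.29, adjusted p = 0.0014). Its close relative *lrs1* fell from 30.3, 16.7 and 25.3 CPM to 8.59, 4.24 and 7.93 CPM (log2 fold change −1.81, SE 0.27, adjusted p = 0.00058). The genotypes were fully separated for both bZIP genes.

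The NAC gene *ZmCUC3*, whose *Arabidopsis* relative marks organ boundaries, was at 213, 264 and 281 CPM in B73 and at 111, 108 and 112 CPM in *tsh4* (log2 fold change −1.19, SE 0.20, adjusted p = 0.0014). *barren stalk fastigiate1* (*baf1*), which encodes an AT-hook protein of the boundary above axillary meristems, fell from 32.3, 45.6 and 35.4 CPM to 23.4, 12.2 and 15.2 CPM (log2 fold change −1.19, adjusted p = 0.0083). The *baf1* call was lost without B73 replicate 2 (adjusted p = 0.0573) or without *tsh4* replicate 2 (adjusted p = 0.0639). *ba1*, *ZmLOF2* and *ZmATH1* did not pass, at log2 fold changes of −0.61, −0.74 and −0.62 (adjusted p = 0.15, 0.051 and 0.19). The listed NAC gene *CUC2*, which the study does not name, did not pass either (log2 fold change −0.46, adjusted p = 0.40). Of the 4 listed boundary markers, *ramosa1* (*ra1*), a zinc-finger gene that limits branching, went the other way, from 0.0880, 0.106 and 0.257 CPM to 0.687, 1.90 and 1.43 CPM (log2 fold change 2.48, adjusted p = 0.00081). The summed level of the 4 markers was 171 to 194 CPM in B73 and 82.9 to 150 CPM in *tsh4*, and *ba1* carried most of it.

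**Figure D2:**
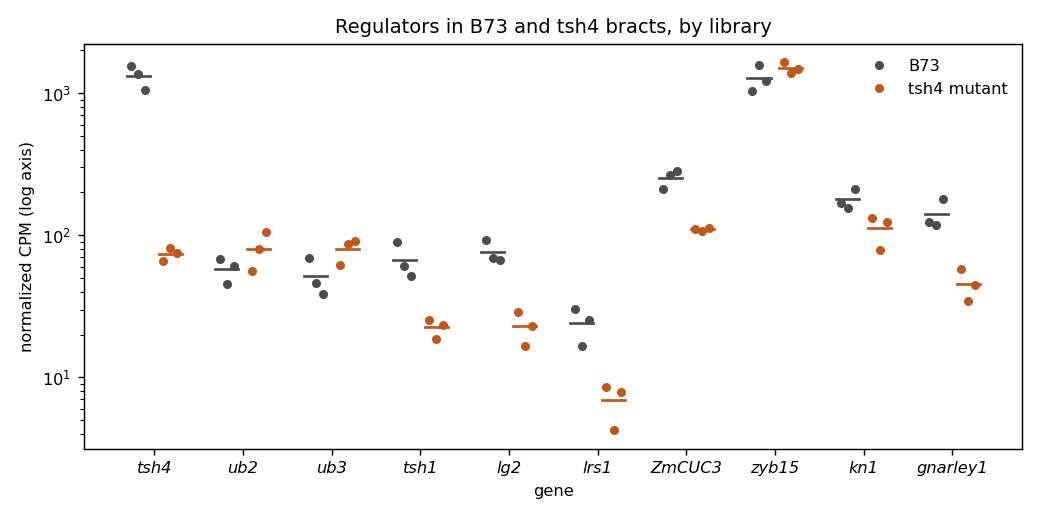
Normalized CPM of 10 regulators in each of the 3 B73 and 3 *tsh4* libraries on a log axis, with points for libraries and short lines for genotype means. The mutant libraries lie below those of B73 for *tsh4*, *tsh1*, *lg2*, *lrs1*, *ZmCUC3*, *kn1* and *gnarley1*, of which *kn1* did not pass the test, and the genotypes overlap for *ub2*, *ub3* and *zyb15*.

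The microdissected tissue was checked with markers of lateral organs and meristems. *zyb15*, a YABBY gene of lateral organs, was high in both genotypes, at 1270 ± 269.8 CPM (SD, n = 3) in B73 and 1496 ± 135 CPM in *tsh4* (adjusted p = 0.67). The meristem gene *knotted1* (*kn1*) was also present, at 168, 157 and 211 CPM in B73 and 133, 78.4 and 125 CPM in *tsh4* (log2 fold change −0.70, adjusted p = 0.26). Of 11 shoot meristem markers, 9 had negative log2 fold changes, and the median was −0.45. Of the 11 markers, 1 was down-regulated and 1 was up-regulated, beside 3.81% called among all genes. Their summed level was 1008 to 1190 CPM in B73 and 790 to 972 CPM in *tsh4*, without overlap, and no marker was at 0 in any library. The part of this difference in the other results was not tested, and in bulk tissue fewer cells of a type cannot be told apart from less RNA per cell.

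Within the knotted-like homeobox (KNOX) family, 1 of 9 members was called, beside 3.81% among all genes. *gnarley1*, whose dominant alleles disturb leaf development when it is expressed outside the meristem, fell from 124, 118 and 179 CPM to 57.6, 34.2 and 44.7 CPM (log2 fold change −1.63, SE 0.29, adjusted p = 0.002). *lg3* and *lg4b* had adjusted p-values of 0.042 and 0.037 but log2 fold changes of −0.74, short of the threshold. The up-regulated marker was *thick tassel dwarf1* (*td1*), a receptor kinase gene related to *CLAVATA1*, at 183, 139 and 99.4 CPM in B73 and 255, 291 and 310 CPM in *tsh4*. Its log2 fold change of 1.06 (adjusted p = 0.018) did not pass without B73 replicate 2 or 3 (adjusted p = 0.0611 and 0.117) or without *tsh4* replicate 2 or 3 (adjusted p = 0.0728 and 0.0894).

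Genes that act in leaf blade development were mostly higher in *tsh4*. The study names 14 of them, chosen on these samples, so that their direction is not independent evidence; 11 were up-regulated and none was down-regulated. Among 10 listed YABBY genes, which act in lateral organ polarity and blade growth, 3 were up-regulated, beside 3.81% called among all genes. The median log2 fold change of the family was 0.44. *zyb14* rose from 28.3, 52.9 and 41.9 CPM to 133, 123 and 140 CPM (log2 fold change 1.73, SE 0.22, adjusted p = 0.00013). *yab3* rose from 1.62, 2.64 and 2.83 CPM to 6.08, 6.78 and 5.76 CPM (log2 fold change 1.39, adjusted p = 0.0017). The third, *yab4*, stayed under 0.5 CPM in all libraries, and its call (log2 fold change 1.69, adjusted p = 0.025) was lost without any 1 B73 library and without *tsh4* replicate 2 or 3 (adjusted p from 0.0643 to 0.129). The remaining YABBY genes, *drl1* and *drl2* included, were not DEGs. The 4 outside the study's leaf genes had log2 fold changes from −0.02 to 0.41. They include *zyb15*, which the study names as a bract marker.

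Of 7 listed TCP genes, a family that controls cell proliferation in leaves, 4 were up-regulated, beside 3.81% called among all genes. *ZmTCP7* was at 3.38, 3.33 and 2.71 CPM in B73 and 12.1, 11.5 and 14.8 CPM in *tsh4* (log2 fold change 2.00, SE 0.24, adjusted p = 6.8e-05). *ZmTCP2*, *ZmTCP8* and *ZmTCP5* had log2 fold changes of 1.56, 1.66 and 2.57. These were the 4 members that the study names, and the other 3 had log2 fold changes of −0.19 to 0.37. *ZmNGA2* and *ZmNGA3*, B3-domain genes related to the *NGATHA* genes of *Arabidopsis*, rose by log2 fold changes of 1.60 and 2.10 (adjusted p = 0.001 and 0.0016).

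Growth-regulating factors (GRFs), transcription factors that promote cell proliferation in leaves, gave 2 up-regulated and 1 down-regulated gene of 15. Among all genes 3.81% were called. *ZmGRF3* rose from 60.0, 41.7 and 34.8 CPM to 103, 128 and 129 CPM (log2 fold change 1.43, SE 0.27, adjusted p = 0.0038). *ZmGRF5* was near the fold threshold, with a log2 fold change of 1.05 (adjusted p = 0.0024) that became 0.93 without B73 replicate 3. *GRF13* fell by 1.11 on the log2 scale (adjusted p = 0.0015), or by 0.99 without B73 replicate 2. Over the family, 12 of 15 log2 fold changes were positive and the summed level was 1009 to 1239 CPM in B73 and 1396 to 1574 CPM in *tsh4*.

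**Figure D3:**
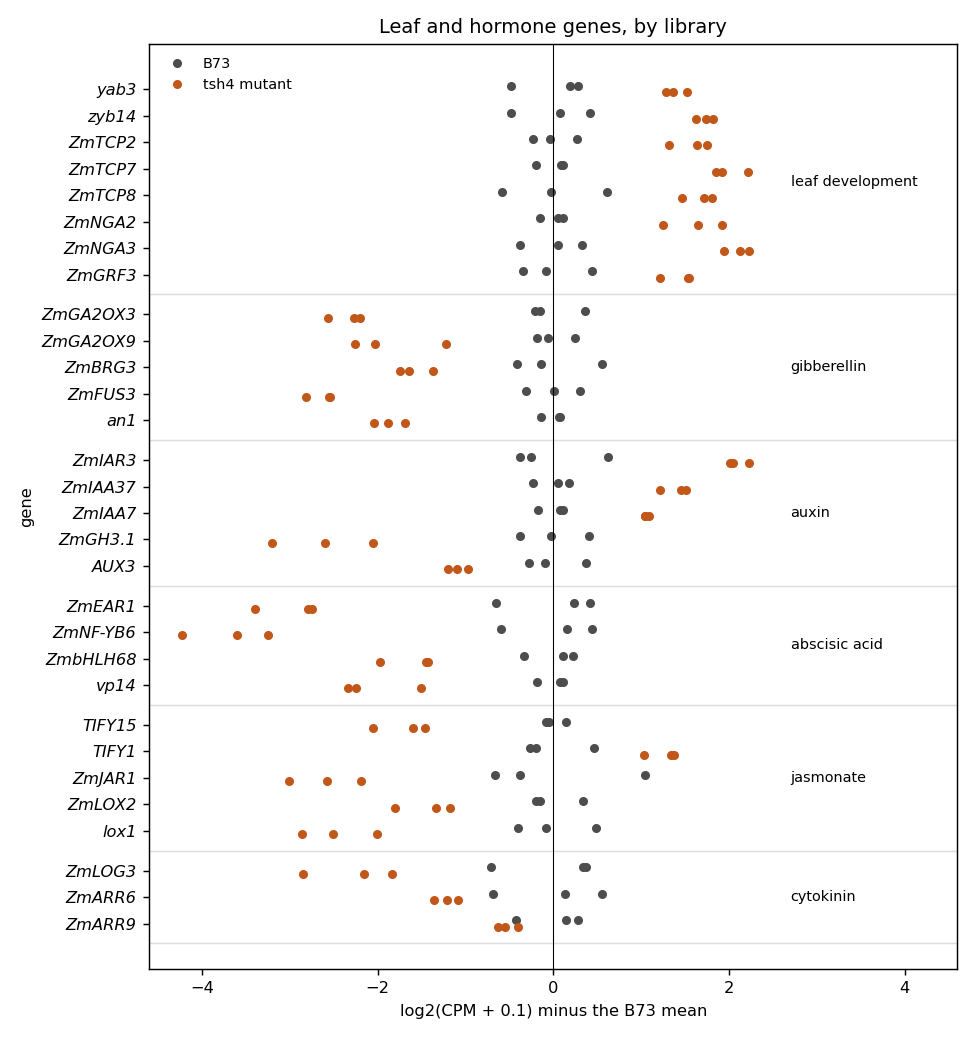
Values of single libraries for 8 leaf development DEGs and for genes of 5 hormone pathways, as log2(CPM + 0.1) minus the mean of the 3 B73 libraries. The 8 leaf genes drawn lie to the right of B73 in all 3 *tsh4* libraries, and leaf genes that were not DEGs are not drawn. The hormone genes are also a selection, which leaves out the up-regulated *ZmGID1C*, *ZmZFP7*, *SnRK2.5*, *aoc1* and *aos3*. Up-regulated auxin genes left out are *ZmIAA16*, *ZmTAR2*, *zar1*, *spi1* and *AUX9*. Down-regulated genes left out are *ZmPUB18*, *ZmGA2OX13*, *opr5*, *ZmLOG7* and *AUX32*. The hormone genes drawn lie mostly to the left in 4 of the pathways and on both sides for auxin, while *ZmARR9* overlaps. Over the whole lists, positive and negative log2 fold changes numbered 22 and 22 for abscisic acid and 13 and 16 for jasmonate. They numbered 3 and 9 for gibberellin and 7 and 18 for cytokinin.

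Of 12 genes of gibberellin metabolism and response, 6 were down-regulated and 1 was up-regulated, beside 3.81% called among all genes. The study names 7 of the 12 from these samples, so that their count is not independent evidence. The median log2 fold change was −1.13. *ZmGA2OX3*, an enzyme gene of gibberellin inactivation, fell from 41.5, 42.9 and 61.4 CPM to 10.4, 7.98 and 9.84 CPM (log2 fold change −2.35, SE 0.32, adjusted p = 0.00025). *ZmGA2OX9* fell by 1.84 on the log2 scale (adjusted p = 0.00082). For *ZmGA2OX13* (log2 fold change −1.08, adjusted p = 0.05), the call was lost without any of 5 libraries (adjusted p from 0.054 to 0.219) and held only without *tsh4* replicate 3. The B3-domain gene *ZmFUS3* fell from 15.2, 18.6 and 12.2 CPM to 2.06, 2.52 and 2.50 CPM (log2 fold change −2.64, SE 0.22, adjusted p = 2.1e-06), and *ZmBRG3* fell by 1.59 (adjusted p = 0.0022).

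Of the 5 gibberellin genes that the study does not name, 1 was a DEG. *anther ear1* (*an1*), which encodes the ent-copalyl diphosphate synthase of an early step of gibberellin synthesis, fell from 5.81, 5.83 and 5.02 CPM to 1.43, 1.65 and 1.27 CPM (log2 fold change −1.87, SE 0.26, adjusted p = 0.0003). The DELLA gene *D8*, a repressor of gibberellin response, averaged 512 CPM in B73 and 311 CPM in *tsh4*, a log2 fold change of −0.72. The receptor gene *ZmGID1C* had no read in any B73 library and 0.302, 0.563 and 0.449 CPM in *tsh4*, which is at least 10.1-fold higher than the floor of 3 reads per library. Enzymes of both synthesis and inactivation were therefore among the reduced genes.

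Auxin genes changed in both directions, with 8 of 48 up-regulated and 3 down-regulated, beside 3.81% called among all genes. The median log2 fold change of the list was 0.04. *ZmIAR3*, which encodes a hydrolase that releases auxin from conjugates, rose from 0.795, 1.69 and 0.873 CPM to 4.57, 4.67 and 5.31 CPM (log2 fold change 2.09, SE 0.27, adjusted p = 0.00011). *ZmGH3.1*, an enzyme gene of auxin conjugation, fell from 17.4, 13.6 and 23.6 CPM to 4.19, 1.84 and 2.85 CPM (log2 fold change −2.62, SE 0.47, adjusted p = 0.0023). Of the Aux/IAA genes, repressors of auxin response, *ZmIAA37* rose from 10.8, 8.12 and 9.90 CPM to 22.3, 26.4 and 27.5 CPM (log2 fold change 1.40, adjusted p = 0.00021). *ZmIAA7* rose from 73.5, 89.5 and 87.6 CPM to 171, 171 and 177 CPM, and its log2 fold change of 1.06 (adjusted p = 0.00093) became 0.97 without B73 replicate 1. *ZmIAA16* was at 0 in all B73 libraries and at 0.687, 1.13 and 1.68 CPM in *tsh4*, at least 26.7-fold higher than the floor.

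Without the 10 auxin genes that the study names, 2 of 38 were up-regulated and 2 were down-regulated, beside 2.04% and 1.77% of all genes. The down-regulated pair was *AUX3* (log2 fold change −1.09, adjusted p = 0.0066) and *AUX32* (log2 fold change −2.25, adjusted p = 0.0076). *AUX3* was at −0.90 without B73 replicate 1, and *AUX32* lost its call without B73 replicate 3 (adjusted p = 0.0511) or *tsh4* replicate 2 (adjusted p = 0.0508). The up-regulated pair was *spi1*, an auxin synthesis gene, and *AUX9*, both named after their values had been seen. *spi1* was at 0.459, 0.247 and 0.274 CPM in B73 and 0.916, 1.45 and 1.03 CPM in *tsh4* (log2 fold change 1.54, adjusted p = 0.018), and its call was lost without replicate 2 or 3 of either genotype (adjusted p from 0.0557 to 0.101). *AUX9* was at a log2 fold change of 1.11 (adjusted p = 0.043) and kept its call only without B73 replicate 1 (adjusted p from 0.0562 to 0.19 without each of the others). The auxin synthesis genes *ZmTAR2* and *ZmYUC8* were weakly expressed. Their means were 0.259 and 0.0117 CPM in B73 and 1.16 and 0.208 CPM in *tsh4*, and only *ZmYUC8* was under the floor of 3 reads in B73. *ZmTAR2* passed at a log2 fold change of 1.74 (adjusted p = 0.028) but not in 5 of the 6 fits that left out a library (adjusted p from 0.0501 to 0.157), and *ZmYUC8* did not pass (adjusted p = 0.094).

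Genes of abscisic acid (ABA), a hormone of dormancy and stress, included 4 down-regulated and 2 up-regulated members of 44, and the median log2 fold change was −0.01. The study names 8 of the 44 from these samples, so that their count is not independent evidence. Of the other 36, 1 was up-regulated and 1 was down-regulated, beside 3.81% called among all genes. The largest change was in *ZmNF-YB6*, a subunit gene of the NF-Y transcription factor, at 317, 155 and 262 CPM in B73 and 19.2, 12.5 and 24.6 CPM in *tsh4* (log2 fold change −3.69, SE 0.53, adjusted p = 0.00033). *ZmEAR1* fell from 391, 211 and 445 CPM to 47.8, 31.6 and 49.6 CPM (log2 fold change −2.98, SE 0.27, adjusted p = 4.3e-06). *vp14*, which encodes the dioxygenase of the first committed step of ABA synthesis, fell from 0.927, 1.13 and 1.16 CPM to 0.146, 0.131 and 0.312 CPM (log2 fold change −2.03, adjusted p = 0.0011). *ZmPUB18* fell by 2.47 on the log2 scale. *ZmbHLH68*, which the study names but which is not among the 44, fell by 1.62 on the log2 scale. The up-regulated members were *ZmZFP7* and the kinase gene *SnRK2.5*, at log2 fold changes of 1.73 and 1.56 (adjusted p = 0.015 and 0.028). Both lost their calls without replicate 2 or 3 of either genotype (adjusted p from 0.0506 to 0.0708 for *ZmZFP7* and from 0.0522 to 0.168 for *SnRK2.5*). Of the 12 ABA genes that the study names, 7 were not DEGs in this comparison, among them *ZmCIPK1* (adjusted p = 0.079), *ZmPYL5* (adjusted p = 0.13) and *ZmADAP* (adjusted p = 0.1).

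Jasmonate genes gave 5 down-regulated and 3 up-regulated members of 29, with a median log2 fold change of −0.20. The study names 2 of the 29 from these samples, and of the other 27, 3 were up-regulated and 3 were down-regulated. Among all genes 3.81% were called. The 5 include *opr5*, whose libraries overlapped and whose call was lost without replicate 1 or 3 of either genotype. *TIFY15*, of the family that holds the JAZ repressors of jasmonate response, was at 437, 374 and 383 CPM in B73 and 131, 95.9 and 144 CPM in *tsh4* (log2 fold change −1.70, SE 0.25, adjusted p = 0.00044). The related *TIFY1* rose from 6.67, 4.0 and 4.21 CPM to 12.3, 9.95 and 12.6 CPM (log2 fold change 1.25, adjusted p = 0.0022). *ZmJAR1*, whose *Arabidopsis* relative joins jasmonate to isoleucine, fell from 14.5, 5.34 and 4.35 CPM to 0.781, 1.09 and 1.45 CPM (log2 fold change −2.59, adjusted p = 0.0039). The lipoxygenase genes *lox1* and *ZmLOX2* fell by 2.46 and 1.44 on the log2 scale. By contrast the allene oxide cyclase gene *aoc1*, of jasmonate synthesis, rose by a log2 fold change of 1.05 (adjusted p = 0.0034), or 0.88 without B73 replicate 1. The third up-regulated member, *aos3*, rose from 0.097, 0 and 0.034 CPM to 0.385, 0.338 and 0.43 CPM (log2 fold change 1.80, adjusted p = 0.0094). Its call was lost without B73 replicate 2 (adjusted p = 0.0592). Synthesis genes were thus called in both directions.

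Of 25 cytokinin genes, 2 were down-regulated and none was up-regulated, beside 3.81% called among all genes. Both are among the 4 that the study names from these samples, so that their count is not independent evidence. Of the other 21 genes, 0 were DEGs. *ZmLOG3*, of the enzymes that activate cytokinins, fell from 40.4, 19.1 and 39.7 CPM to 4.24, 6.95 and 8.69 CPM (log2 fold change −2.28, SE 0.34, adjusted p = 0.00049). *ZmLOG7* was at 0.583, 3.35 and 1.51 CPM in B73 and 0.0310, 0 and 0.898 CPM in *tsh4*, with overlap. Its call (log2 fold change −2.73, adjusted p = 0.031) was lost without B73 replicate 2 or 3, without *tsh4* replicate 1 or 2 (adjusted p from 0.0943 to 0.189) and with edgeR (adjusted p = 0.173). The response regulator genes *ZmARR6* and *ZmARR9* did not pass (adjusted p = 0.09 and 0.55). For ethylene, 1 of 5 genes was called: *acco20*, an ACC oxidase gene, rose from 1.47, 1.59 and 3.25 CPM to 12.6, 17.9 and 20.5 CPM (log2 fold change 3.02, SE 0.29, adjusted p = 8e-06).

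**Figure D4:**
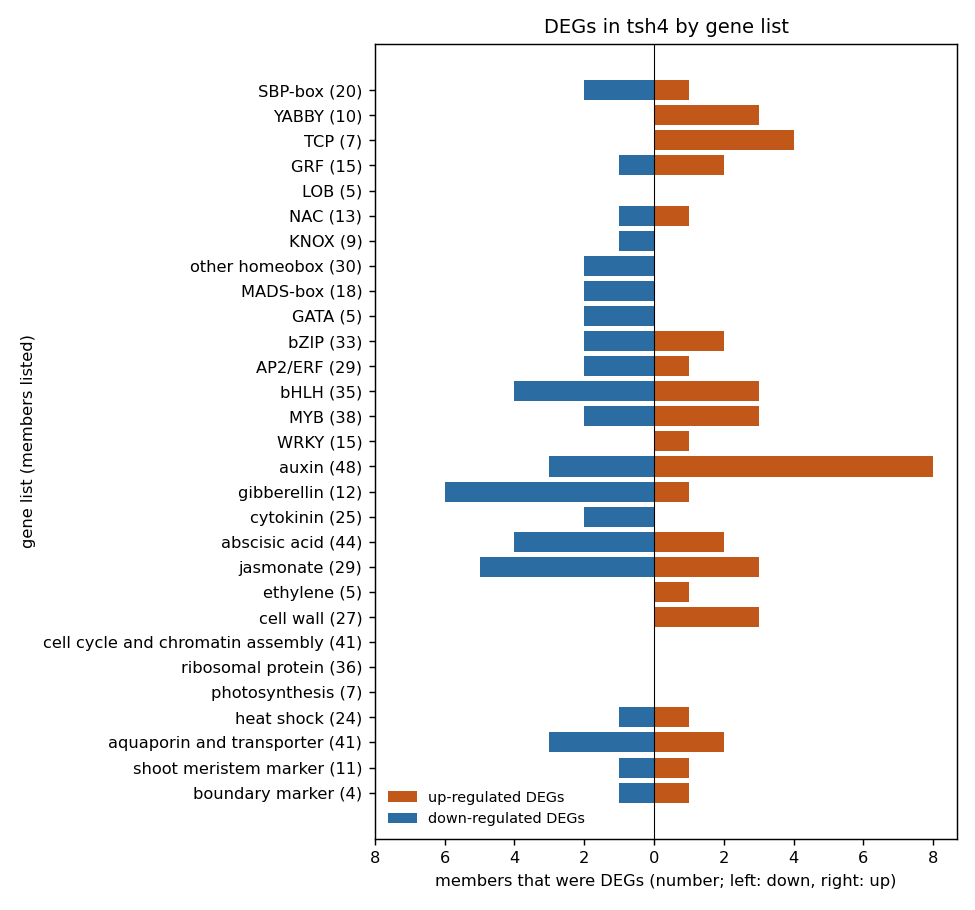
Number of DEGs in each gene list, with up-regulated members to the right of 0 and down-regulated members to the left, and the number of listed members in parentheses. Gibberellin and jasmonate lean to the left, YABBY, TCP and auxin lean to the right, and no member of the cell cycle, ribosomal protein, photosynthesis or LOB lists was a DEG. These counts include members that the study names from these samples. Without them, 3 jasmonate genes were up-regulated and 3 down-regulated, and 2 auxin genes were up-regulated and 2 down-regulated. Of the other gibberellin genes 0 were up-regulated and 1 was down-regulated, and 0 of the other YABBY and TCP genes were DEGs.

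Among the other transcription factors, the largest rise with a mean of at least 1 CPM was that of *MYB59* (GRMZM2G130149), from 0.265, 0.141 and 0.188 CPM in B73 to 23.8, 27.9 and 44.7 CPM in *tsh4* (log2 fold change 6.72, SE 0.34, adjusted p = 8.1e-09). Another gene listed under the same name, GRMZM2G093789, averaged 7.74 CPM in B73 and 6.36 CPM in *tsh4* and was not a DEG (adjusted p = 0.69). *bHLH23* rose from 0.697, 1.11 and 3.12 CPM to 39.9, 35.8 and 36 CPM (log2 fold change 4.68, SE 0.40, adjusted p = 2.2e-06). *HSF2*, of the heat shock factors, rose from 11.3, 9.73 and 13.1 CPM to 71.4, 87.6 and 92.5 CPM (log2 fold change 2.87, adjusted p = 7e-07). *Hsf01* of the same class, whose identifier matches more than 1 RefSeq gene, fell from 277, 346 and 273 CPM to 122, 118 and 101 CPM (log2 fold change −1.39, adjusted p = 7.1e-05). The libraries of the genotypes were apart for all of these DEGs.

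In the families that follow, between 6.67% and 40% of members were DEGs, on 1 to 7 genes each, beside 3.81% of all genes. Of 38 MYB genes 3 were up-regulated and 2 were down-regulated, and of 35 bHLH genes 3 were up-regulated and 4 were down-regulated. The homeobox genes outside KNOX gave 2 down-regulated members of 30, of which *HB85* fell by 1.86 on the log2 scale (adjusted p = 3.4e-05). Of 18 MADS-box genes, a class that controls floral organ identity and flowering, 2 were down-regulated. One of them, *m26*, was added to this list after its call had been seen, and it fell from 8.56, 12.9 and 16.4 CPM to 2.34, 3.04 and 3.44 CPM (log2 fold change −2.03, adjusted p = 0.0028). Besides *tsh1*, *GATA28* was the only other DEG of 5 GATA genes, at a log2 fold change of −2.29 (adjusted p = 0.0016). In the AP2/ERF, bZIP, NAC and WRKY lists, 10.3%, 12.1%, 15.4% and 6.67% of 29, 33, 13 and 15 members were DEGs.

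Outside these lists, some named genes were chosen after their values were seen. *grassy tillers1* (*gt1*), a homeodomain-leucine zipper gene that represses growth of lateral buds and floral organs, rose from 32.4, 31.1 and 41.6 CPM to 103, 97.9 and 103 CPM (log2 fold change 1.54, SE 0.18, adjusted p = 5.6e-05). *GRAS19* rose by a log2 fold change of 2.59 (adjusted p = 2e-05). Of the *OFP* genes, a family of transcriptional repressors, *OFP16* rose from 21.0, 17.5 and 17.9 CPM to 43.8, 41.5 and 50.8 CPM and *OFP24* rose by a log2 fold change of 2.29. *OFP29* moved the other way, from 19.0, 18.2 and 20.0 CPM to 4.56, 3.40 and 5.13 CPM (log2 fold change −2.12, adjusted p = 6.1e-06).

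Cell wall genes gave 3 up-regulated and no down-regulated members of 27, beside 3.81% called among all genes. The median log2 fold change of the list was 0.01. The beta-expansin gene *expB8* rose from 174, 120 and 145 CPM to 378, 315 and 512 CPM (log2 fold change 1.44, SE 0.24, adjusted p = 0.0011). *Cel21*, a cellulase gene, rose from 6.83, 6.06 and 5.34 CPM to 20.1, 18.4 and 19.2 CPM (log2 fold change 1.65, adjusted p = 0.00029). No cellulose synthase gene of the list was a DEG. Among 41 aquaporins and other transporters, *NIP1-1* and *pip2b* were up-regulated at log2 fold changes of 2.34 and 1.42, and 3 were down-regulated, with *pht2* at −3.15. In this list 12.2% of members were called, beside the same 3.81%.

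No DEG was found by limma among 41 genes of the cell cycle and chromatin assembly, where 9 had an unadjusted p of at most 0.05 (15.3% of all genes did) and edgeR and DESeq2 called 0. The same held for 36 ribosomal protein genes, with 3 at that unadjusted p and 0 calls by edgeR and DESeq2. The medians of both lists were 0.21, and 34 of 41 and 32 of 36 members had positive log2 fold changes. Of 7 photosynthesis genes, 0 were called by limma, 3 had an unadjusted p of at most 0.05, and 1 was called by edgeR and by DESeq2. *rbcS*, the small subunit of Rubisco, averaged 0.333 CPM in B73 and 0.371 CPM in *tsh4*. The LOB list of 5 had 0 calls by the 3 tools and 0 at an unadjusted p of at most 0.05.

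Many of the largest changes were in genes without a name in the RefSeq table. The largest fall was in GRMZM2G000264, at 65.0, 61.2 and 74.4 CPM in B73 and 0.0210, 0.0560 and 6.38 CPM in *tsh4*, so that 1 mutant library stood far above the other 2 (log2 fold change −7.07, SE 0.96, adjusted p = 0.00021). GRMZM2G069016 fell evenly, from 87.2, 67.9 and 80.3 CPM to 2.92, 2.33 and 3.61 CPM (log2 fold change −4.70, SE 0.25, adjusted p = 1.1e-08). *grp3* fell from 28.1, 28.2 and 27.1 CPM to 1.49, 1.56 and 1.21 CPM (log2 fold change −4.21, adjusted p = 1.6e-07). The down-regulated gene with the highest CPM was GRMZM2G444567, at 1715, 1286 and 1647 CPM in B73 and 490, 396 and 622 CPM in *tsh4* (log2 fold change −1.64, adjusted p = 0.00055). Of the up-regulated genes, GRMZM2G113332 had the highest CPM, with a log2 fold change of 1.02 (adjusted p = 0.013) that did not pass without B73 replicate 2 or 3 or *tsh4* replicate 3 (adjusted p from 0.0524 to 0.0672).

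A gene was counted as detected in 1 genotype only where all 3 libraries of it were above 3 reads and all 3 of the other were at or under 3. By this rule 36 genes were detected only in *tsh4*, of which 32 were DEGs, and 12 only in B73, of which 11 were DEGs. The rule itself requires separated libraries, so that these DEG counts are not separate evidence. Such genes could pass the authors' filter of 0.25 CPM only through libraries other than those of the genotype without detection. GRMZM2G430526 had 1 read in all B73 libraries together and 12.2, 9.63 and 7.63 CPM in *tsh4*, at least 226-fold above the floor, which was 0.0436 CPM as the mean of the B73 libraries. No other gene of either set averaged at least 5 CPM in the genotype where it was detected. The median bound was 9.94-fold for genes of *tsh4* alone and 12.9-fold for genes of B73 alone. These floors cover counting error only, since the RNA was amplified and its molecules were not tagged before sequencing.

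DEGs were unevenly spread over the chromosomes. By gene order of the NAM-5.0 assembly of B73, 85 of 1141 matched genes on chromosome 7, which carries *tsh4*, were DEGs (7.45%), compared with 2.47% to 3.91% on each of the other 9 chromosomes and 3.7% over all placed genes. Both directions were represented, with 39 up-regulated and 46 down-regulated genes. In the 300 genes before *tsh4* 12% were DEGs, and in the 300 genes after it 6.0%. Within 100 genes on either side, 15 of 200 were DEGs (7.5%), and within 25 on either side 6 of 50 (12%), of which 5 were down-regulated. When the genes placed on chromosome 7 were left out of the count, 372 up-regulated and 311 down-regulated DEGs were left.

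Both genes that follow *tsh4* in this order were DEGs, in opposite directions. GRMZM2G419739, the next gene, fell from 10.4, 10.01 and 11.1 CPM to 0.677, 0.563 and 1.85 CPM (log2 fold change −3.40, SE 0.35, adjusted p = 1.5e-05). GRMZM2G038051, the one after it, rose from 0.185, 0.211 and 0.0510 CPM to 7.49, 8.15 and 10.2 CPM (log2 fold change 5.19, SE 0.35, adjusted p = 1.6e-07). The DEGs *yab3*, *yab4*, *ZmLOG3*, *ZmPUB18*, *AUX9*, *ra1* and *GRAS19*, described above, also lie on chromosome 7. So do *ZmADAP* and *OFP11*, which were not DEGs. The mutant allele and any chromosome 7 sequence that came with it from the donor stock were present in the same libraries, and their effects cannot be told apart.

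**Figure D5:**
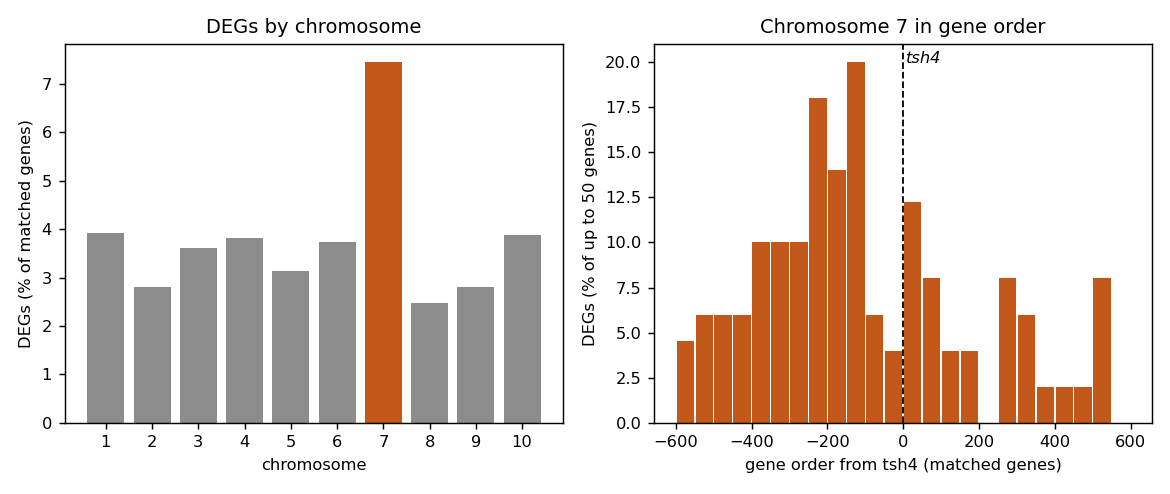
Left, DEGs as a percentage of matched genes on each chromosome, with chromosome 7 at 7.45% and the others at 2.47% to 3.91%. Right, DEGs as a percentage of successive groups of up to 50 genes along chromosome 7 in gene order from *tsh4* (dashed line), where the highest share, 20.0%, lies 101 to 150 genes before *tsh4*.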

How the data were processed

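The authors prepared stranded mRNA libraries from amplified RNA, trimmed reads with Trimmomatic 0.36, aligned them to B73 RefGen_v3 with STAR 2.6.0a, ran featureCounts to obtain counts per gene and applied TMM scaling in edgeR 3.22.5. The strand setting of the counting is not given in the sources used here, so sense and antisense reads cannot be told apart. The table deposited holds a signal, normalized CPM per gene and library, which the authors filtered at 0.25 CPM in at least 3 libraries. Of the 20168 genes listed, 20134 pass that rule on the deposited values. Whole reads could be recovered from the step between low values for 100% of the values of each library (tolerance 0.0005 CPM), and they were used for depth, detection and the count models.

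log2(CPM + 0.1) was fitted with limma 3.58.1 (lmFit, eBayes with trend, R 4.3.3) to all 12 libraries, so that the 2 other genotypes of the series with *tsh1* mutations contribute to the spread, and Benjamini-Hochberg adjustment covered all 20168 genes. The fit was tested on simulated data. Genotypes came from the sample titles.

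Named genes were *tsh4*, *tsh1*, *ub2*, *ub3*, *zyb15*, *kn1*, the genes that the study names, the largest and most abundant changes, the DEGs of each list with the smallest p, genes detected in 1 genotype and DEGs beside *tsh4*. The members and lists were chosen with earlier results of these data known, and some lists were trimmed or extended after calls had been seen. Identifiers of genes that the study names were read from labels of its expression figure. Other names, gene lists (by symbol alone) and gene order came from RefSeq (Zm-B73-REFERENCE-NAM-5.0), which matched 14381 identifiers (71.3%) and named 1985. Lists without usable symbols and promoter sequences were not used here.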

Additional observations from a re-analysis of the deposited data

How the results depend on the processing

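The log2 fold changes of *tsh4* and *tsh1* kept their direction and stayed DEGs under all 16 alternative fits. Of 768 DEGs (411 up-regulated, 357 down-regulated), 414 (220, 194) were called with a pseudocount of 1, 511 (269 up-regulated) at an adjusted p of at most 0.01, and 226 (118, 108) with a threshold of 2 on the log2 fold change. A filter at a mean of 1 CPM, which leaves fewer genes to test, left 268 up-regulated DEGs. With 1 library left out, which also means fewer samples, there were 575 to 684 DEGs, 277 to 388 of them up-regulated and 259 to 306 down-regulated. Down-regulated genes outnumbered up-regulated genes only without B73 replicate 2 (281 and 296) or *tsh4* replicate 3 (277 and 306). The other counts, with edgeR's quasi-likelihood test (771), DESeq2 (899), 6 libraries in the fit (888), other scalings (758 and 780), no trend (802), a pseudocount of 0.01 (756) or no fold threshold (995), were within 1.5 times the main count. Within 25 genes on either side of *tsh4* 12% were DEGs, compared with 7.5% within 100. Of 138 DEGs tracked one by one, 90 were called in every alternative and 0 reversed.

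The replicate number was not treated as a pairing in the main fit. Replicate 1 had the most reads in all 4 genotypes of the series, and a batch shared by libraries of the same number was not tested. The correlations that follow cannot decide this, since they rest on 3 libraries per genotype. Deviations from the genotype means correlated at −0.27, 0.15 and 0.12 between libraries with the same number and at −0.51 to 0.36 between others, so not every library correlated best with its own number. With the replicate block, 740 genes were DEGs (402 up-regulated, 338 down-regulated). The promoter alternatives were not run. For weakly expressed genes, the pseudocount sets the size of the fold change. The omission of chromosome 7 genes was added after seeing the data.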
